A study of Mus musculus with 2 samples.

Results

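Ago2 binding was examined on the transcripts of 10 Polycomb genes, Aebp2, Jarid2, Mtf2, Phf19, Ezh2, Suz12, Eed, Cbx7, Ring1 and Rnf2, out of 15271 genes in the deposited table of predicted microRNA sites. Their entries were found by name, as every entry whose gene name was one of these symbols. The list of genes was drawn up with earlier results of these data known, so its counts beside those of all genes are a description. They held 1206 of the 1641948 site entries and 42 of the 6211 clusters that the authors called enriched at p under 0.05. Binding was measured by iCLIP, in which a protein is crosslinked to RNA in cells, pulled down, and the RNA it holds is sequenced. Both mouse embryonic stem cell lines had human Ago2 under doxycycline control as their only Argonaute family member, per the series description. In TT-FHAgo2 the protein carried a FLAG-HA tag, and in TT-Ago2, the background control, it carried none. Each was a clonal line, kept in 0.1 µg/mL doxycycline and raised to 2.5 µg/mL for 24 h, and both went through pull-downs with FLAG and then HA antibodies. Each line gave 1 library, so there was no replicate spread, and no test between conditions could be made. Intervals below are exact 95% binomial (Clopper-Pearson) intervals that cover counting error only, and PCR copies of a fragment are not independent molecules. The clone and the tag cannot be told apart in this design.

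Polycomb proteins keep developmental genes silent, which in embryonic stem cells holds lineage genes off while the cells remain pluripotent. Polycomb repressive complex PRC2 methylates lysine on histone H3 through Ezh2, which needs Eed, the subunit that reads the mark, and Suz12, the scaffold. Aebp2 and Jarid2 belong to one form of the complex and the Polycomb-like proteins Mtf2 and Phf19 to another, and these accessory subunits guide PRC2 to chromatin. In PRC1, Ring1 and Rnf2 (Ring1b) are the E3 ligases that ubiquitinate histone H2A, and Cbx7 is the chromobox subunit that binds methylated H3. MicroRNAs direct Argonaute to messenger RNAs mainly through pairing of the seed, bases 2 to 8 of the microRNA, to the 3' UTR.

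Among microRNAs matched to a RefSeq entry, those below have the seed matches that carried most of the reads described for these transcripts. Mature sequences are from RefSeq on GRCm38.p6, 5′ to 3′, with the seed in capitals. The first group is from the embryonic stem cell cluster miR-290 to miR-295: miR-291a, miR-294 and miR-295 share a seed, and miR-290a-3p shares all of it but the last base. The second is the miR-17 group, which shares most of that seed shifted by a base, and miR-19 is the third. Then follow miR-182, the opposite arm of miR-290a, miR-25 and miR-92a, and single members of the miR-7, miR-30, miR-16 and miR-23 families and miR-431.
mmu-miR-291a-3p: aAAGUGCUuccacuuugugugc
mmu-miR-294-3p: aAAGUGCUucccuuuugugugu
mmu-miR-295-3p: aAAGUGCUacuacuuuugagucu
mmu-miR-290a-3p: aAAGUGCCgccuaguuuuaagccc
mmu-miR-17-5p: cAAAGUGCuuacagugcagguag
mmu-miR-20a-5p: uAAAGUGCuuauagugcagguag
mmu-miR-19a-3p: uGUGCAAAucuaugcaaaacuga
mmu-miR-19b-3p: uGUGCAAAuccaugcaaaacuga
mmu-miR-182-5p: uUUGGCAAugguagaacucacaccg
mmu-miR-290a-5p: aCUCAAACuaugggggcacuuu
mmu-miR-25-3p: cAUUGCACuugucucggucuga
mmu-miR-92a-3p: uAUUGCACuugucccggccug
mmu-miR-7a-5p: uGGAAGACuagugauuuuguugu
mmu-miR-30a-5p: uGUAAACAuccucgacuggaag
mmu-miR-16-5p: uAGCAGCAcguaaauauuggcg
mmu-miR-23a-3p: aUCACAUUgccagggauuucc
mmu-miR-431-5p: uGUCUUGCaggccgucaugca

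The stretches below are target sites on these transcripts, in the sense of the RNA but written as DNA, with mm9 positions. They are shown because they are the most covered matches of 7 or 8 bases in Aebp2, Jarid2, Suz12 and Cbx7, or, in Aebp2, Mtf2 and Rnf2, because matches to different seeds overlap or lie close together. Capitals mark the bases of listed seed matches, and lower-case bases come from other words of the table that overlap them. In the 8-base Aebp2 stretch a match to the miR-290a-3p seed and a match to the miR-17 seed overlap. In the Rnf2 stretch a match to miR-19 and one to miR-17 share 4 bases. The Mtf2 stretch holds 6-base matches to miR-23a and to miR-25 and miR-92a.
Aebp2, chr6:140601121-140601127, plus strand: AGCACTT
Aebp2, chr6:140600694-140600700, plus strand: TTGGGAG
Aebp2, chr6:140601206-140601213, plus strand: TTGCCAAA
Aebp2, chr6:140603021-140603028, plus strand: GGCACTTT
Jarid2, chr13:45015406-45015414, plus strand: TTTGCACta
Mtf2, chr5:108536610-108536625, plus strand: ATGTGAcctaTGCAAT
Suz12, chr11:79847304-79847311, plus strand: TTTGCACA
Cbx7, chr15:79746459-79746468, minus strand: TTTGCACAca
Rnf2, chr1:153317493-153317503, minus strand: TTTGCACTTTA

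The values per site rest on 789000 reads of the tagged library. A site covered by 1 read is listed at 1.27 RPM, reads scaled to library size, and values are given as whole reads. Reads at a site and tagged reads of a cluster are separate deposited counts, and a site's number can exceed that of the cluster over it. The untagged number of a cluster was solved from its log2 enrichment in the authors' deposited table, and the sources used here do not say how it was scaled. Expression is the highest FPKM, fragments scaled to transcript length and library size, listed for a gene's isoforms. The sources used here do not say which cells or library gave these values, so they cannot by themselves identify the cell lines. In them, 10 of 10 embryonic stem cell markers were listed, at 40.3 to 1655 FPKM. Of 5 fibroblast markers, Vim stood at 45.0 and Thy1 at 1.89 FPKM, and Col1a1, Col1a2 and Postn had no entry. Of 5 neural markers, Tubb3 stood at 40.1 FPKM, Pax6, Nes and Map2 at 0.498 to 3.95, and Sox1 had no entry. Of 5 trophectoderm markers, Krt8, Krt18 and Eomes stood at 0.957 to 9.85 FPKM, and Cdx2 and Elf5 had no entry. Of 5 primitive endoderm markers, Gata4 and Sox7 stood at 0.165 and 0.618 FPKM, and the rest had no entry.

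Ago2 clusters lay on 8 of the 10 Polycomb transcripts (80.0%), all but Phf19 and Ring1. The 10 genes are a fixed list and not a random draw, so no interval is given for this share. Over all genes, the share with a cluster was 17.1%. Aebp2 had the most, 14, followed by Mtf2 with 8, Jarid2 with 7, Cbx7 with 5, Suz12 with 4, Ezh2 with 2, and Eed and Rnf2 with 1 each. Thus 4 of the 10 had at least 5 clusters, against 1.51% of all genes. The accessory subunits Aebp2, Mtf2 and Jarid2 held the 3 highest counts, while the fourth accessory subunit, Phf19, had none. Counting 3' UTR clusters alone, 7 genes had one, against 11.6% of all genes, and counting clusters over a listed match of 7 or 8 bases, 6 did, against 8.68%. At the stricter p under 0.01 the clusters of Cbx7, Eed and Rnf2 dropped out and 5 genes were left, against 10.5% of all genes.

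**Figure D1:**
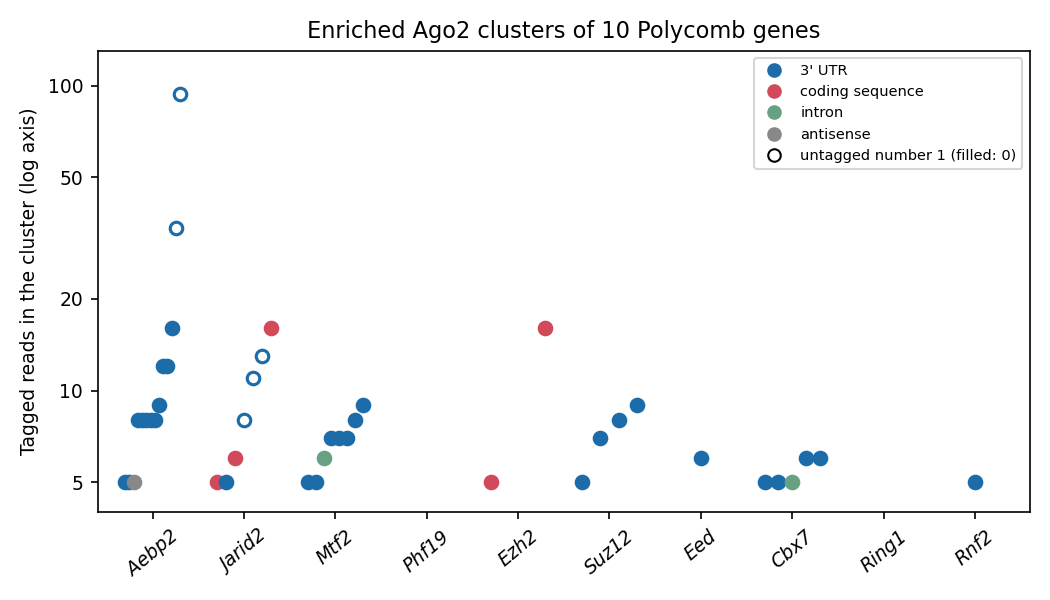
Enriched Ago2 clusters on each of the 10 genes, divided by where the cluster lies on the transcript. Aebp2 reaches 14 clusters, 13 of them in the 3' UTR, and Phf19 and Ring1 have none.

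Of the 42 clusters, 34 lay in a 3' UTR (81.0%), against 61.3% of all 6211 clusters. Of these 34, 13 were on Aebp2, and overlapping clusters are not independent, so no interval is given for this share. Coding sequence held 5, on Jarid2 (3) and Ezh2 (2), and 2 of these ran across a splice junction. Introns held 2, 1 on Mtf2 and 1 on Cbx7, and 1 was antisense to Aebp2. The untagged number was 0 in 37 clusters (88.1%, against 85.6% of all clusters) and 1 in the other 5, which were on Aebp2 (2) and Jarid2 (3). Tagged reads per cluster ran from 5 to 94 with a median of 7, the same as the median of 7 over all clusters. The 13 clusters of 5 reads against 0 sit at the limit of what the authors' binomial test calls, since 5 reads of 5 have p = 0.03125. By that test, 23 of 42 clusters had p under 0.01 (54.8%), against 49.6% of all clusters. Many clusters overlap and share reads: joined where they overlap, the 42 form 31 separate stretches, so their reads are not summed here. Of the 40 clusters that cross no junction and are at most 200 nt wide, 23 lay over a listed seed match (57.5%, against 53.0% of all such clusters) and 14 over one of 7 or 8 bases (35.0%, against 34.2%). The clusters of these genes thus lay over listed seed matches at about the share of all clusters, and 17 lay over no listed match.

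Aebp2 held the clusters with the most reads, in a 3' UTR where they span 2687 nt (mm9 chr6:140600484-140603170, plus strand). The 13 clusters there form 6 separate stretches. In order along the UTR, the first cluster (from 140600484 to 140600515) had 5 tagged reads against an untagged 0. The next stretch, from 140600632 to 140600721, held 1 cluster of 34 reads against 1, a ratio of 34 with a counting interval of 5.70 to 1382, and 1 of 12 reads against 0. The authors' binomial p was 1.05e-09 for the former and 0.0002 for the latter. Then came 3 overlapping clusters of 8 reads against 0 each, between 140601003 and 140601081.

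The largest Aebp2 cluster, from 140601088 to 140601226, had 94 tagged reads against an untagged 1. The ratio was 94 with a counting interval of 16.5 to 3752, and the authors' binomial p was 2.42e-27. Among all 6211 clusters it ranked 6 by tagged reads and 4 by p. Its crosslink events peaked at 140601148 with 13 events, 21 nt past the last base of the AGCACTT match, counting the deposited offset from the cluster's first base. At its downstream edge 3 further clusters followed, with 8, 8 and 5 reads against 0, up to 140601271. This stretch of UTR thus held both the largest cluster of the 10 genes and one at the smallest read number in the list.

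After a gap of 1723 nt without a cluster, the last 3 Aebp2 clusters lay between 140602995 and 140603170. They had 9, 12 and 16 reads against 0, and the largest of them, from 140603111, is at least 5.33-fold above the untagged library when 0 is taken as a floor of 3 counts. Such bounds, here and below, use the tagged reads as counted and leave out their counting error. Over the 13 UTR clusters, the untagged number was 0 in 11, a listed seed match lay under 10, and a match of 7 or 8 bases lay under 6. The remaining Aebp2 cluster was antisense (from 140571921 to 140571957, 5 reads against 0). Where a cluster's strand is opposite to the gene, its reads may belong to another transcript, so it is counted in the 14 but not described as binding to Aebp2 mRNA.

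Within these clusters the reads were unequal between seed matches. The AGCACTT match pairs to the seed of miR-291a, miR-294 and miR-295, which miR-302b and miR-302d share. It had 102 reads and ranked 4 among 2243 distinct 3' UTR sites with this match or its 8-base form. Over those sites, 46.3% had any read, with a median of 3 reads where there was one. TTGGGAG had 25 reads and ranked 2 of 2078, where 11.0% had any read. No entry was matched to it among the RefSeq sequences used here, so its microRNA is not named. TTGCCAAA, a match to miR-182, had 22 reads and ranked 5 of 1521. All of these had PhastCons, a conservation score from 0 to 1, of 1. Nearby, GTTTGAGA, a match to miR-290a-5p, had 12 reads. In the far stretch the 6-base match TGCAAT of miR-25 and miR-92a had 18 reads, and GGCACTT and GCACTTT, which overlap, had 12 each.

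Reads at the Aebp2 sites did not belong to the listed seed matches alone. The control 8mers are the 966 other 8-base words of the table, which extend none of the 50 listed seeds. They do include matches to other microRNAs, such as let-7. How many of them match a microRNA was not counted, so they are not a set free of seed matches. The control word CTCTCCGA, which starts at 140601160 in the largest cluster, had 99 reads, against 102 at AGCACTT upstream of it in that cluster. GTTTGTTA, also in the largest cluster, had 38, and GTGGCTGA, in the cluster of 34 reads, had 42. Clusters are wider than a seed, and neighbouring words can be covered by the same reads.

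Reads, conservation and expression differed along the Aebp2 UTR. In the near group of clusters, up to 140601271, 20 of 26 listed and control sites had a read, with a maximum of 102 and a median PhastCons of 0.998. In the gap, 16 of 57 sites had a read, none more than 2, and the median PhastCons was 0.0023. In the far group, 7 of 7 sites had a read, with a maximum of 18, at a median PhastCons of 0.002. Upstream of the first cluster, 22 of 43 sites had a read, with at most 5. Past the last cluster, 2 of the next 18 sites had 1 read each. A further 23 sites, from 22789 nt downstream on, belong to an isoform listed at 0.335 FPKM, and none had a read. The listed isoform expression at the sites was 44.2 to 52.4 FPKM in the near group and 18.6 FPKM in the far group, and its part in the difference was not tested.

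**Figure D2:**
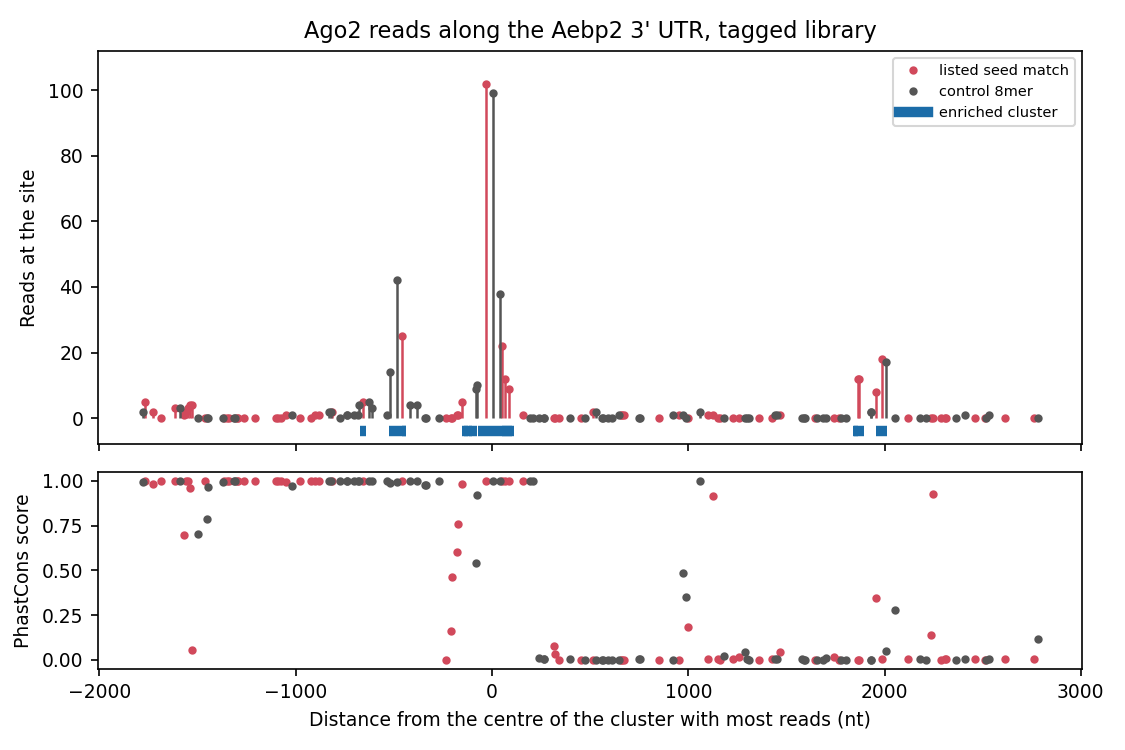
Reads at each of 151 listed (red) and control (grey) sites of the main Aebp2 3' UTR by distance in nt from the centre of the largest cluster, with clusters as bars, and the PhastCons score of each site below. Reads stand in 2 groups of clusters, of which the near group has scores near 1 and the far group scores near 0.

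Jarid2, which like Aebp2 binds PRC2 and helps bring it to chromatin, had 7 clusters at 70.3 FPKM. The one with the lowest p lay in coding sequence (chr13:45011800-45011861) with 16 reads against 0, at least 5.33-fold, with an authors' binomial p of 1.53e-05, and no listed match lay under it. In the 3' UTR the cluster from 45015393 to 45015463 had 13 reads against 1, a ratio of 13 with a counting interval of 1.95 to 552. It overlapped the TTTGCAC match of miR-19, which had 17 reads at PhastCons 1 and ranked 35 of 1631 sites with that match. GTGCAAT, a match to miR-25 and miR-92a, had 8 reads. The remaining named Jarid2 match, ACTGTGA of miR-27, had 1 read. All 3 Jarid2 clusters with an untagged read were UTR clusters, and its coding clusters had none.

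Mtf2, a Polycomb-like protein that binds unmethylated CpG-rich DNA, had 8 clusters at 48.0 FPKM, none of them over a listed 7- or 8-base match. The one with the lowest p (chr5:108537286-108537329) had 9 reads against 0, at least 3-fold, authors' binomial p of 0.0019. Of the 8 clusters, 3 lay over a 6-base match and 5 over no listed match, the one with the lowest p among them. The most covered listed sites were the 6-base matches ATGTGA with 9 reads, TGCAAT with 8 and TTGCAC with 7. The most covered longer matches were GGCAGCT of miR-22 with 6 reads, GTTTGAG of miR-290a-5p with 4 and GAGCCTG of miR-484 with 2, and none lay in a cluster.

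Phf19, the other Polycomb-like protein of the list, had no cluster at 3.25 FPKM. Of its 36 listed 3' UTR sites 1 had a read, the TGCTGCT match of miR-16 with 1 read (2.78%, interval 0.0703 to 14.5%). In all genes 16.5% of listed 3' UTR sites had a read, above the upper bound of that interval. Control words at like expression gave 10.9%, inside it.

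Among the PRC2 core genes, Suz12 had 4 clusters at 44.5 FPKM, all in the 3' UTR. The lowest p was at chr11:79846113-79846159, with 9 reads against 0 (at least 3-fold, authors' binomial p of 0.0019). Its TTTGCACA match of miR-19 had 8 reads at PhastCons 1, and the 6-base match CACTTT had 10. TTTGCACA in its coding sequence had 2 reads, and so had TGTTATGA.

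Ezh2, the methyltransferase, had 2 clusters, both in coding sequence, at 13.6 FPKM. One spans a splice junction (chr6:47483792-47490693) with 16 reads against 0, at least 5.33-fold, authors' binomial p of 1.53e-05, and the other had 5 reads against 0. The 3' UTR of Ezh2 has only 5 listed sites, of which 3 had a read, 2 for TGCCTT and 1 for TCTTCC, with 3 or 4 reads each. Eed had the highest expression of the group, 72.4 FPKM, and 1 cluster (chr7:97103261-97103304) of 6 reads against 0, at least 2-fold, authors' binomial p of 0.0156. That cluster covered GTCTTCC of miR-7 with 6 reads, which ranked 17 of 1770. At its edge the cluster overlapped only part of TGTTTACA of miR-30, which lies from 97103302 to 97103309 and had 5 reads.

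Among the PRC1 genes, Cbx7 had 5 clusters at 45.3 FPKM, none with more than 6 reads. The one from 79746446 to 79746489 on chr15 had 6 reads against 0 (authors' binomial p of 0.0156). It covered TTTGCACA of miR-19, with 8 reads counted at the site, and GCAAGAC of miR-431, with 7. The latter ranked 2 of 798 sites with that match, of which 11.0% had any read. TTGGGAG, the match that ranked high in Aebp2, had 5 reads in Cbx7. Rnf2 had 1 cluster at 37.8 FPKM (chr1:153317479-153317514, 5 reads against 0), in which the overlapping TTTGCAC and GCACTTTA matches shown above and ATGAAAA had 5 reads each. Ring1, the paralogue of Rnf2, had no cluster at 3.07 FPKM, and 1 of its 12 listed 3' UTR sites had 1 read.

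Listed seed matches in the 3' UTRs of the 10 genes were covered more often than in the table at large. Of 309 sites, 125 had a read (40.5%, interval 34.9 to 46.2%), against 16.5% of such sites in all genes, and 30 lay in a cluster (9.71%, against 1.73%). By gene, the share was 67.9% in Suz12 (19 of 28), 58.6% in Mtf2 (17 of 29), 56.2% in Jarid2 (9 of 16), 37.8% in Aebp2 (34 of 90) and 37.0% in Cbx7 (17 of 46), and in Rnf2 22 of 44 sites had a read. The intervals of these 6 genes overlap, from 27.8 to 48.6% in Aebp2 to 47.6 to 84.1% in Suz12. Such overlap is not a test of their order, which was not tested, and sites of a gene are not independent. Aebp2, first by clusters, was thus not first by share of sites. The Aebp2 3' UTR sites, listed and control, include those of the isoform at 0.335 FPKM, none of which had a read. Sites of 7 or 8 bases were covered in 47 of 87 cases (54.0%, against 20.1% in all genes) and 6-base sites in 78 of 222 (35.1%, against 15.1%).

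Control words in the same UTRs, all of 8 bases and some of them matches to other microRNAs, were covered about as often as the listed 6-base sites (35.1%). They were covered less often than the listed sites of 7 or 8 bases (54.0%). Of 283 control 8mers in the 3' UTRs of the 10 genes, 100 had a read (35.3%, interval 29.8 to 41.2%), against 11.5% in all genes. This interval overlaps that of the listed sites of all lengths together, and the comparisons by gene below do not match length either. In Aebp2 the shares were 37.8% listed and 39.3% control, in Mtf2 58.6 and 54.5%, in Suz12 67.9 and 60.0%, in Cbx7 37.0 and 24.0%, and in Jarid2 56.2 and 28.6%. In Rnf2 it was 22 of 44 listed and 12 of 27 control sites (44.4%). The listed share was above the control in 5 of these 6 genes, and Aebp2 was the exception. An expected number was also taken from the control words of all genes in the same region and the same 0.5-wide stratum of log2 FPKM. On that scale the observed number of covered 3' UTR sites was 2.07 times the expected in the 10 genes, and 1.41 times in all genes. It was 3.53 in Ezh2 (3 of 5 sites), 2.94 in Mtf2, 2.84 in Suz12, 2.60 in Eed (2 of 3 sites), 2.19 in Jarid2, 2.09 in Rnf2, 1.99 in Aebp2, 1.85 in Cbx7, 0.764 in Ring1 and 0.255 in Phf19. In coding sequence, 21 of 158 listed sites were covered (13.3%, against 11.5% in all genes), 1.06 times the expected number, and in all genes 8.46% of control words there were covered. In 5' UTRs 8 of 43 listed sites were covered, against 10.2% of listed and 7.01% of control sites in all genes.

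**Figure D3:**
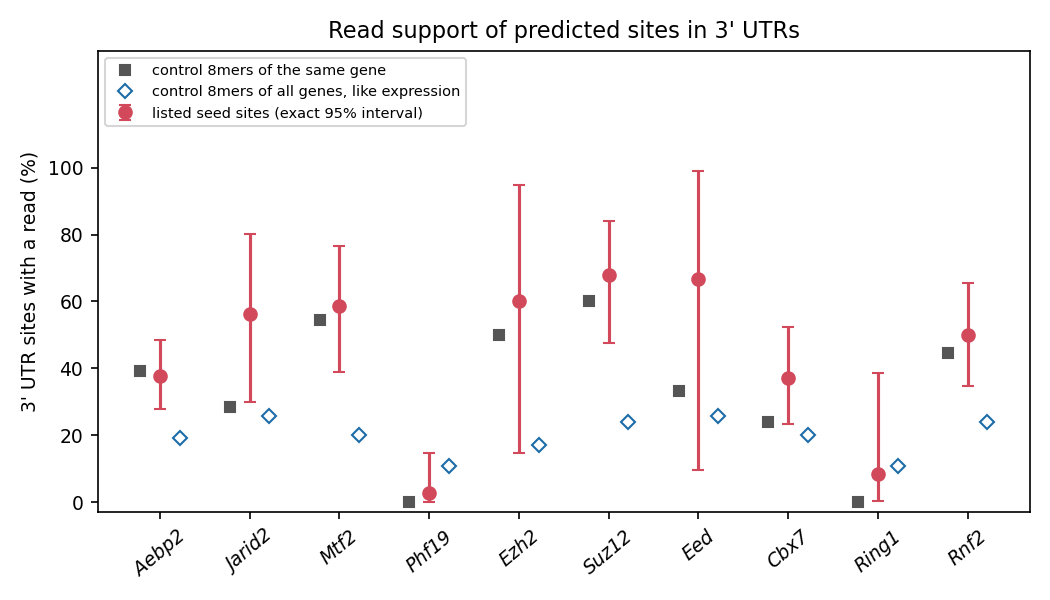
Share of 3' UTR sites with at least 1 read in each gene, for listed seed matches (red, with exact 95% intervals), control 8mers of the same gene (grey squares) and control 8mers of all genes at like expression (blue diamonds). In Aebp2 the listed share (37.8%) and the control share (39.3%) are alike, and in Phf19 and Ring1 both are low.

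Pooled over the 10 genes, listed sites with a read had the higher conservation scores. Expression was not matched here. The sites without a read include nearly all those of Phf19 and Ring1, at 3.25 and 3.07 FPKM, and those of the Aebp2 isoform at 0.335 FPKM. The part of expression in the difference was not tested, and control words were not compared. The median PhastCons of the 125 listed 3' UTR sites with a read was 0.987 and that of the 184 without one 0.0728. Over all genes the medians were 0.142 and 0.0253. Of the 30 sites in a cluster, 22 scored above 0.9. The other 8 were 4 in the Aebp2 far group, TTTGAT and TGCTGCT in Cbx7 (5 reads each, below 0.01), CTCTGC in Jarid2 (9 reads, 0.0295) and CACTTT in Suz12 (10 reads, 0.120).

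By seed family, miR-19 was the most widely shared. A family here is the set of matches to bases 2 to 7. Its match was covered in all 6 genes that have one in the 3' UTR, Aebp2, Jarid2, Mtf2, Suz12, Cbx7 and Rnf2. It was covered at 10 of 13 sites (76.9%, interval 46.2 to 94.96%), against 33.5% over all genes, and sites of the same family at like expression would give 5.97. It lay in a cluster in 5 of the 6 genes. The miR-17 family was covered at 5 of 6 sites, against 27.4% over all genes, and miR-25 and miR-92a at 4 of 8, against 19.5%. The miR-16 family was covered at 7 of 12, against 23.0%, and miR-290a-5p at 4 of 7, against 17.1%. The miR-23a match was covered at 5 of 9, against 13.2%, and the TGAAAA match of miR-335-3p at 7 of 15, against 10.5%. Other families were covered about as often as in all genes or less: TGCCTT at 3 of 13 sites, against 18.9%, miR-103 and miR-107 at 2 of 9, against 21.0%, and AACCTC at 1 of 10, against 11.0%. CACAAG was covered at 0 of 8 and the miR-183 match at 0 of 5, where like expression would give 1.27 and 1.28. Of the 45 families with a 3' UTR site in these genes, 39 had a share above that of all genes and 6 below. Those shares leave expression unmatched, and control words of these UTRs were also raised (35.3%, against 11.5% in all genes). At like expression, the same families would give 2.29 covered sites for miR-17, 2.33 for miR-25 and miR-92a, and 3.75 for miR-16. They would give 2.26 for miR-290a-5p, 2.31 for miR-23a and 2.79 for TGAAAA. For TGCCTT it would be 3.30, for miR-103 and miR-107 2.38, and for AACCTC 1.49. The family with the most reads in Aebp2, GCACTT, is the 6-base match shared by miR-290a-3p, miR-291a, miR-294, miR-295, miR-302b and miR-302d. Aebp2 alone of the 10 genes had 3' UTR sites counted under it, 2 sites that both had reads. The GCACTTTA match of Rnf2 also contains GCACTT. It was counted under the miR-17 family alone, since matches inside longer matches were left out. Over all genes 47.7% of the sites counted under GCACTT had a read. Sites of a gene share their transcript, so these shares describe the 10 genes and were not tested.

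**Figure D4:**
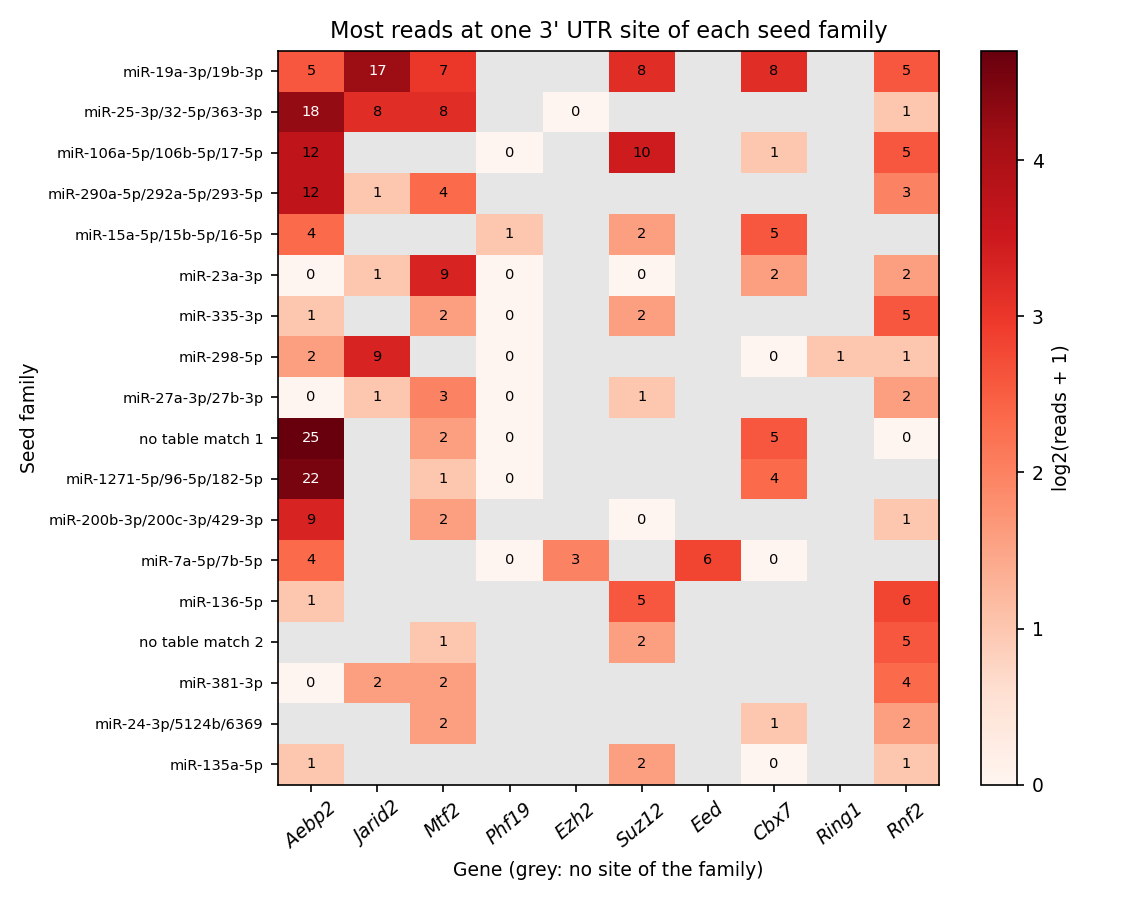
Most reads at 1 site in the 3' UTR for each microRNA seed family covered in at least 3 of the 10 genes, by gene, with colour on a log2(reads + 1) scale and grey where the gene has no match. The miR-19 family is covered in all 6 genes that have a match, and the highest value drawn is 25 reads, in Aebp2.

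Listed expression was set beside the cluster counts, since clusters were commoner on abundant transcripts. The median FPKM was 13.9 for genes with a cluster and 3.26 for those without. Among the 982 genes within 0.5 log2 FPKM of Aebp2, 295 had a cluster and 1 had 14 or more (0.102%). For Mtf2, 8 of 1080 such genes had at least its 8 clusters (0.741%). For Jarid2, 10 of 789 had at least 7 (1.27%), and for Cbx7, 39 of 1157 had at least 5 (3.37%). For Suz12 the share was 5.60% and for Ezh2 11.6%. For Eed and Rnf2, with 1 cluster each, it was 30.5 and 30.2%, which is the share of such genes with any cluster. For Phf19 and Ring1, 14.9 and 14.0% of genes at their low expression had a cluster. Summed over the 10 genes, the shares at like expression give 2.65 genes with a cluster, and 3.27 when the number of 3' UTR sites is matched too, against the 8 counted.

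**Figure D5:**
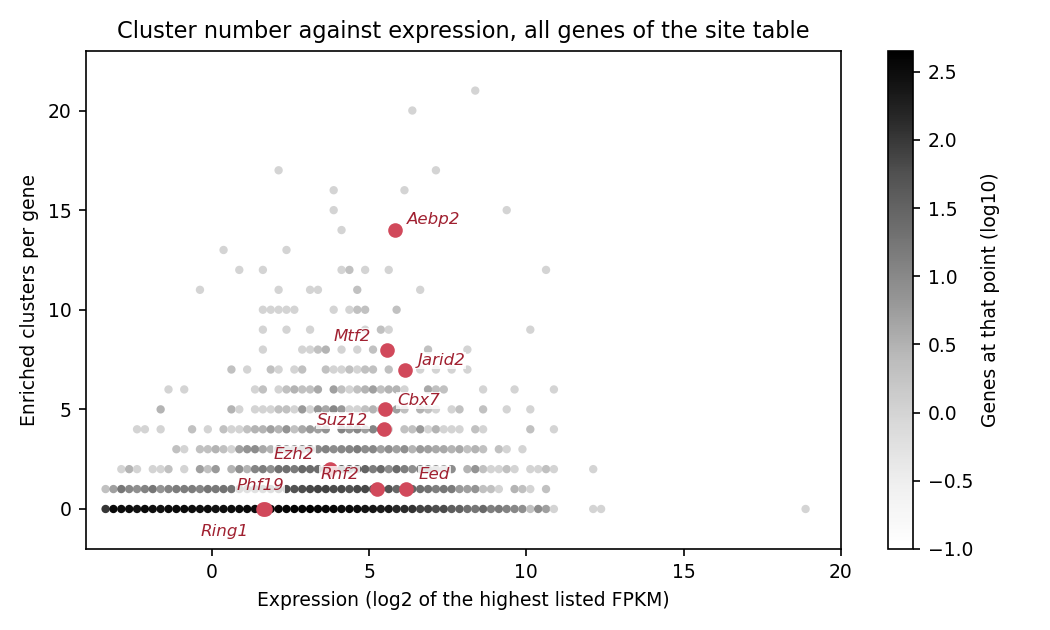
Number of enriched clusters against log2 of the highest listed FPKM for all genes of the table (grey, darker where more genes lie) with the 10 Polycomb genes in red. Aebp2 lies above nearly all genes of like expression, and Phf19 and Ring1 lie at low expression with no cluster.

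The other genes of these pathways had clusters less evenly, at 21 of 52 listed genes (40.4%, against 17.1% of all genes). Of 6 other PRC2 genes 4 had one: Ezh1 2, and Rbbp4, Rbbp7 and Lcor 1 each. The cluster on the histone chaperone gene Rbbp7 had 71 reads against 2. Epop, an elongin-binding PRC2 subunit, had none at 149 FPKM. Of 23 other PRC1 genes 6 had one, most on the polyhomeotic gene Phc1 (7), the chromobox gene Cbx6 (5), Phc3 (4, at 0.351 FPKM) and Mga (3), while Rybp (50.3 FPKM), L3mbtl2 (45.5), Pcgf2 (24.3) and Pcgf6 (19.2) had none. Of 10 genes of the H2A deubiquitinase PR-DUB and its partners 4 had one, Hcfc1 3 and Asxl2, Foxk1 and Ogt 1 each. Asxl1 (31.1 FPKM) and the deubiquitinase Bap1 (29.5) had none. Of 13 H3K27 demethylase and Trithorax genes, which act against Polycomb, 7 had one, most on the methyltransferase genes Setd1b (7), Mll1 (6) and Mll3 (3). Of the 7 on Setd1b, 1 lay in the 3' UTR. Their shared subunit genes Ash2l (190 FPKM) and Wdr5 (96.8) had none.

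The genes whose reads were spread over seed families most like those of Aebp2 were found by cosine similarity over 48 families, among 836 genes with a summed coverage of at least 50 reads over these sites. They were Arhgap32 (0.922), Ccnt1 (0.913), Tnfaip1 (0.910), Ssr3 (0.906) and Mdh2 (0.901), against a median gene at 0.400. Summed over the sites of Aebp2, with reads that cover several sites counted at each, 39.4% of the coverage was on the GCACTT family. This similarity is a description of 1 library. None of the 5 genes had more than 3 clusters.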

How the data were processed

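The members and gene lists were chosen with earlier results of these data known. The submitters' processing notes name Bowtie, TopHat, mm9 and NCBIM37, without versions. The sources used here do not give the cluster caller or where the FPKM values come from. In the cluster file, the authors' peak height is a signal counted in reads. Tagged reads, log2 enrichment and a binomial p-value are the authors', joined in 1 score field. The untagged number was solved from that log2 value. The authors' site table gives coverage in RPM, from which whole reads were recovered. It gives isoform expression in FPKM, a log2 coverage as deposited, and a PhastCons score as deposited. Repeated entries of a site were dropped. Matches inside longer matches and control 8mers overlapping a listed site were left out. A cluster was over a match at 1 nt of overlap on the same strand, leaving out junction clusters and those over 200 nt. Named were all members, all Aebp2 clusters, the lowest-p cluster of each other member, and up to 3 most covered 7- or 8-base sites per member. In the other lists, up to 4 genes with most clusters and up to 4 of highest FPKM without one were named. Other sites named were chosen after their values were seen. Analyses used Python 3.11.15, pandas 2.3.3 and scipy 1.17.1 and were tested on simulated data. Alternatives are given in the closing section.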

Additional observations from a re-analysis of the deposited data

How the results depend on the processing

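With clusters at p under 0.01 alone, 5 of the 10 genes (from 8) kept a cluster and 23 of 42 clusters were left. With 3' UTR clusters alone it was 7 genes, and with clusters over a 7- or 8-base match 6. The share of all listed sites with a read, 30.2% over all regions, was 17.6% for at least 2 reads, 40.5% in 3' UTRs, 39.3% for 7- and 8-base matches and 5.88% for sites in a cluster. Observed over expected support, 1.80 over all regions, was 2.96 with expression left unmatched, 2.07 in 3' UTRs, and 1.14 against control words of the same gene. Aebp2 had 14 clusters as listed, 7 with overlapping ones joined and 6 with those less than 50 nt apart joined. When genes were also matched on the number of 3' UTR sites, 0% of 32 genes had as many clusters as Aebp2 (0.102% without). Joining overlapping clusters, leaving out antisense clusters or Aebp2, matching on sites as well, 3' UTR support and the stricter p for the other lists (17 of 52 genes) were added after the data were seen. No paired analysis was possible because each group has 1 library. With 5 reads in the smallest clusters, a difference of a few reads is not detectable at this depth. The untagged library enters only through the authors' enrichment values, so sites outside clusters have no background measured beside them.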
